A study of Rattus norvegicus with 9 samples.

Results

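The genes described here are the interferon-stimulated effector genes of hepatic macrophages, a list of 42 antiviral and interferon-response genes given by symbol. Members were taken where the array carried a probeset with that single symbol, and the brightest probeset stood for the gene. By that rule 38 of the 42 were measured, among 18166 genes with a single symbol, and all 38 were bright enough to be among the 14014 genes tested. Oas3, Rnf213, Bst2 and Parp12 were not found with a single symbol and were not analysed here.

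Hepatic macrophages came from 9 male Sprague-Dawley rats, each on an Affymetrix array of its own. In 3 rats the portal vein was narrowed by partial portal vein ligation (PPVL), a model of portal hypertension, and the cells were taken 3 days later. In 3 further rats they were taken 10 days after PPVL. The 3 sham rats had the same operation without a ligature, and the day on which their cells were taken is not given. Time since surgery may therefore differ between sham and each PPVL group, and the same 3 sham arrays serve as control for both days.

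Interferons are secreted proteins that signal to neighbouring cells through surface receptors. Type I interferon activates the kinases Jak1 and Tyk2, which lead to the assembly of a transcription factor, containing Stat2 and Irf9, that binds a promoter element called the interferon-stimulated response element (ISRE). Interferon gamma acts on a different element, the gamma-activated site (GAS). The genes switched on in this way encode proteins that detect foreign RNA, degrade it, block its translation or modify other proteins, and the macrophages of the liver meet microbial products brought by portal blood.

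Promoters of the members were read from RefSeq (GRCr8), from 250 bases before to 50 bases after each gene's start. Of the 38 measured members, 30 had an entry. The ISRE core, searched on both strands as GAAA, any 2 bases and GAAA again (TTTC, any 2 bases and TTTC on the other strand), occurred in 19 of these 30 promoters (63.3%). It occurred in 1034 of 27457 promoters of all genes (3.77%). The GAS core, searched as TTC, any 3 bases and GAA, which reads the same on both strands, occurred in 7 of the 30 (23.3%) and in 8.68% of all promoters. The stretches printed next belong to the genes described in detail below that hold an ISRE match before the start, since they show the element through which type I interferon is known to act. A match is a run of letters and not a measured binding site. Each is written 5′ to 3′ on the strand of its gene, with the ISRE match in capitals and up to 40 bases on either side. Rsad2 lies on the minus strand (chr6:48788218-48788307), with its match beginning 147 bases before the start. The match of Irf7 begins 69 bases before the start (chr1:205800043-205800132, minus strand). In Oas1b (chr12:41395856-41395951, minus strand) 2 overlapping matches begin 59 and 53 bases before it. That of Xaf1 begins 11 bases before the start (chr10:57415884-57415934, plus strand). The matches of Parp14 (chr11:78408018-78408107, plus strand) and Gbp5 (chr2:233910903-233910992, plus strand) begin 76 and 56 bases before theirs. In Pml the match lies past the start, so it is not printed. Ifi44, whose array values are also given below, holds a match on either side of the start and is not printed, since it was picked out after its values were seen.
Rsad2: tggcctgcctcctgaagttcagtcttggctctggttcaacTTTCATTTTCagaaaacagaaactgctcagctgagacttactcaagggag
Irf7: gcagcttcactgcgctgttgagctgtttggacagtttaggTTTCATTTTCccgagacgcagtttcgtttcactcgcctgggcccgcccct
Oas1b: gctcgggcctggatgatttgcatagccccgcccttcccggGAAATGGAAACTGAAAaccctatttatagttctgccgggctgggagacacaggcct
Xaf1: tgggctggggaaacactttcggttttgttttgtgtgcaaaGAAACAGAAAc
Parp14: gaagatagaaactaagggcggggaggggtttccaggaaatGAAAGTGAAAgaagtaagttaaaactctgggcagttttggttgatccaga
Gbp5: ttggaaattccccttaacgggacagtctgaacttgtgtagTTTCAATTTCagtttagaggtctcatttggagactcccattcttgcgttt

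At 3 days after PPVL most members read lower than in sham, but none passed the test. Differences are given as the mean log2 signal after PPVL minus that of sham, with the standard error (SE) of the fit and n = 3 rats a group. Over the 38 members the median difference was -0.29, against -0.01 over all 14014 genes, and 35 of 38 lay below 0, as did 55% of all genes. In 19 of 38 members the 3 arrays at 3 days all lay below the 3 sham arrays, which held for 8.66% of all genes. In no member did they all lie above, against 10.1% of all genes. With limma and Benjamini-Hochberg adjustment over all genes, 0 of 38 members had an adjusted p under 0.05, where 2.86% of all genes did (0.714% lower and 2.15% higher). At an unadjusted p under 0.05 there were 16 lower and 1 higher, against 6.39% and 9.1% of all genes. The smallest adjusted p of a member was 0.0520. In these bulk samples fewer cells of a type and less RNA per cell cannot be told apart.

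**Figure D1:**
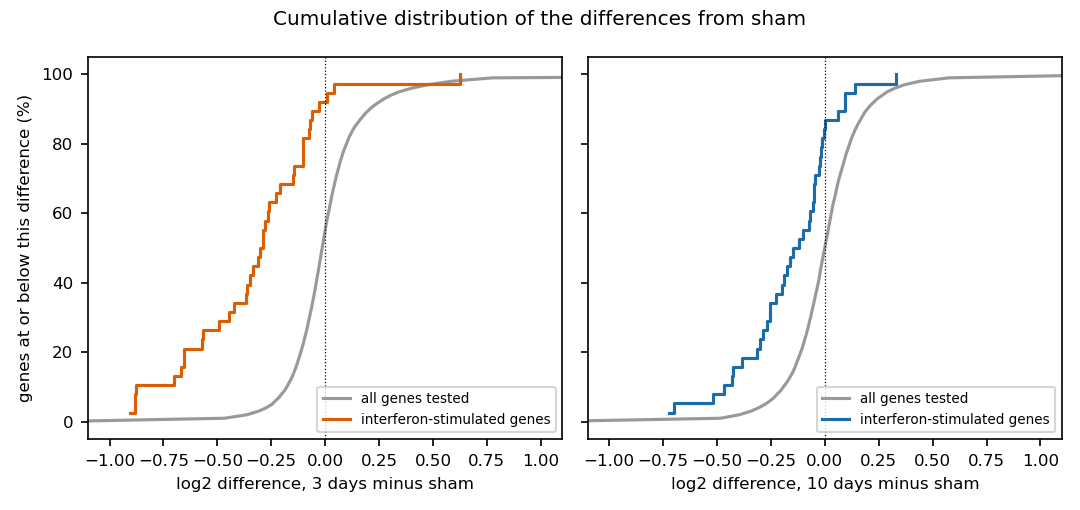
Cumulative distribution of the log2 differences from sham at 3 days (left) and 10 days (right), with the difference on the x axis and the percentage of genes at or below it on the y axis. The coloured steps are the 38 interferon-stimulated genes and the grey line all 14014 genes tested; the members' medians lie at -0.29 and -0.13, and those of all genes near 0.

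At 10 days the differences were smaller. The median over the members was -0.13, against -0.0004 over all genes, and 33 of 38 lay below 0, as did 50.2% of all genes. The 3 arrays at 10 days all lay below sham in 2 members, Mx2 and Ifi44, which is 5.26% of members and less than the 11.1% of all genes. In none did they all lie above it, against 9.88% of all genes. No member had an adjusted p under 0.05 (limma), against 0.735% of all genes (0.243% lower and 0.492% higher). At an unadjusted p under 0.05 there were 5 lower and 0 higher, against 8.21% and 7.99% of all genes. Set against 3 days, the 10-day level was higher in 31 of 38 members, with a median difference of 0.17, and lower in 7, where 48.1% of all genes were lower. The arrays did not overlap in Rsad2 and Ifi27, both higher at 10 days, against 6.9% of all genes, and no member was lower without overlap, against 7.74%. None passed the test (limma), as did 0.0714% of all genes (0.05% lower and 0.0214% higher). At an unadjusted p under 0.05 there were 3 higher and 1 lower, against 5.04% and 6.22% of all genes. A test over the 3 groups together gave 0 members at an adjusted p under 0.05 (2.35% of all genes) and 14 at an unadjusted p under 0.05 (17.8% of all genes).

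**Figure D2:**
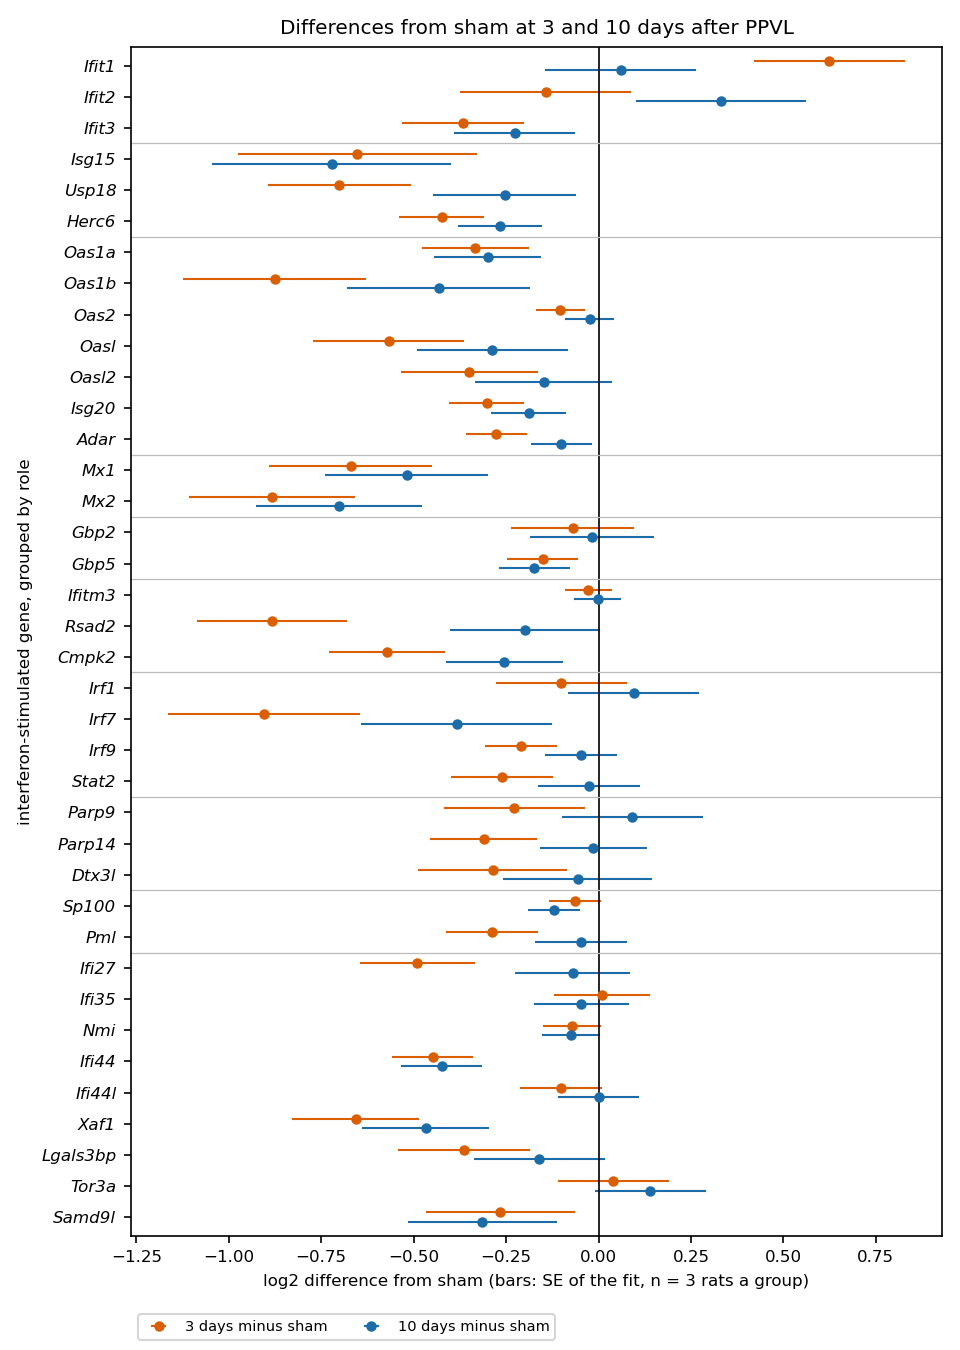
Log2 difference from sham (x axis) of each of the 38 genes at 3 days (orange) and 10 days (blue), grouped by role, with bars for the SE of the fit (n = 3 rats a group). At 3 days 35 points lie below 0 and at 10 days 33; the lowest is Irf7 at -0.91 and the highest Ifit1 at 0.62, both at 3 days, and no difference passed the adjusted test.

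The smallest adjusted p of any member was that of Rsad2, which encodes viperin, an enzyme that makes a nucleotide analogue able to end viral RNA chains. Its log2 signal was 6.76, 6.92 and 7.03 in the sham rats, 6.06, 5.91 and 6.10 at 3 days, and 7.28, 6.46 and 6.38 at 10 days. The 3-day arrays lay below every other array, and the 10-day rats spanned the sham range. The difference at 3 days was -0.88 ± 0.20, a level 45.8% lower (adjusted p = 0.0520, limma), and -0.20 ± 0.20 at 10 days (adjusted p = 0.688). Between the days it was 0.68 ± 0.20 higher at 10 days, with no overlap of the arrays (adjusted p = 0.282). The call at 3 days hung on the setting: adjusted p lay between 0.00563 and 0.164 over 17 further fits, of which 6 passed 0.05. Cmpk2, a mitochondrial nucleotide kinase whose gene neighbours Rsad2, read 7.12, 6.89 and 7.12 in sham, 6.39, 6.36 and 6.68 at 3 days, and 7.16, 6.71 and 6.51 at 10 days. Its 3-day arrays lay below all sham arrays, by -0.57 ± 0.16 on average (adjusted p = 0.0995). Ifitm3, which blocks fusion of viruses with the cell's membranes, differed by -0.03 ± 0.06 at 3 days, within the spread of the arrays. A second, dimmer probeset for Ifitm3 differed by 0.13 at 3 days and 0.10 at 10 days.

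**Figure D3:**
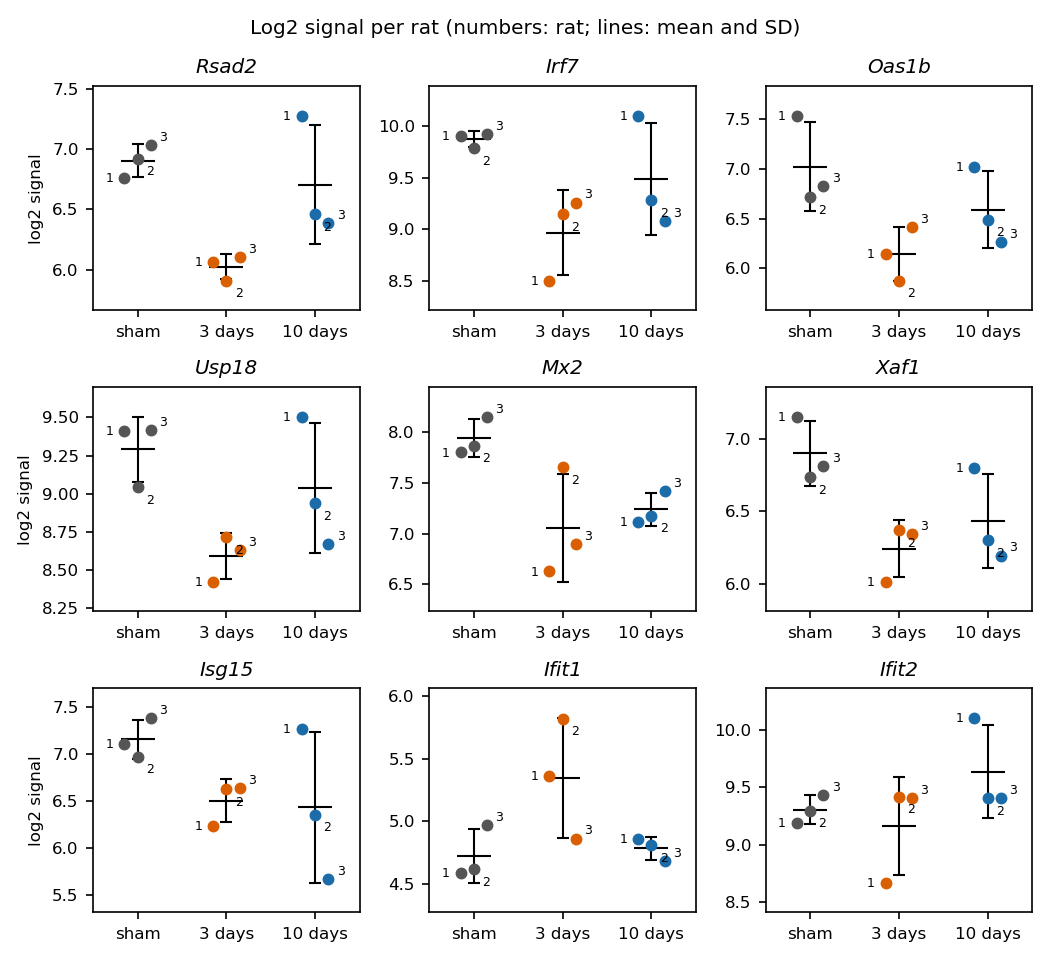
Log2 signal (y axis, own range in each panel) of 9 genes in the 3 sham rats, the 3 rats at 3 days and the 3 rats at 10 days, with each rat's number beside its point and lines for the mean and SD. In 7 of the 9 panels the 3-day points all lie below the sham points, the exceptions being Ifit1 and Ifit2; rat 1 is the highest at 10 days except in Mx2.

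Among the transcription factors, Irf7 showed the largest difference of all members. Irf7 is itself induced by interferon and amplifies the production of type I interferon. It read 9.91, 9.78 and 9.92 in sham, 8.50, 9.14 and 9.26 at 3 days, and 10.10, 9.28 and 9.08 at 10 days. All 3 rats at 3 days lay below all 3 sham rats, while at 10 days rat 1 lay above them and the other rats below. The difference was -0.91 ± 0.26 at 3 days, 46.6% lower (adjusted p = 0.111), and -0.38 ± 0.26 at 10 days (adjusted p = 0.512). Stat2 and Irf9, parts of the factor that binds the ISRE, differed by -0.26 ± 0.14 and -0.21 ± 0.10 at 3 days, without overlap of the groups for Stat2. At 10 days they differed by -0.02 ± 0.14 and -0.05 ± 0.10. Irf1, which responds mainly to interferon gamma, differed by -0.10 ± 0.18 and 0.09 ± 0.18, within its spread.

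The ISG15 group held its direction in every member at both days. Isg15 is a ubiquitin-like protein that is attached to other proteins, Herc6 is a ligase that attaches it in rodents, and Usp18 removes it and also damps the type I interferon receptor. In each of the 3 genes the 3-day arrays all lay below sham, and the median difference was -0.65. Usp18 read 9.41, 9.04 and 9.42 in sham, 8.42, 8.72 and 8.63 at 3 days, and 9.50, 8.94 and 8.67 at 10 days. That made -0.70 ± 0.19 at 3 days (adjusted p = 0.0994) and -0.25 ± 0.19 at 10 days (adjusted p = 0.567), with rat 1 of the 10-day group at the sham level. A second probeset for Usp18 differed by -0.89 and -0.48. Isg15 read 7.11, 6.97 and 7.38 in sham, 6.24, 6.63 and 6.64 at 3 days, and 7.27, 6.36 and 5.67 at 10 days. The 10-day rats spanned more than any group of any member, with an SD of 0.799. Isg15 differed by -0.65 ± 0.32 at 3 days (adjusted p = 0.383) and -0.72 ± 0.32 at 10 days (adjusted p = 0.310). Without rat 1 of the 10-day group the latter was -1.14 (adjusted p = 0.150), and without rat 3 it was -0.34 (adjusted p = 0.604). Herc6 differed by -0.42 ± 0.11 (adjusted p = 0.0903) and -0.27 ± 0.11.

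In the group that senses or edits RNA, all 7 genes read lower at 3 days, with a median of -0.33, and 5 did so without overlap. Several enzymes of the Oas family, though not all its members, are activated by double-stranded RNA. They make a messenger that switches on the RNA-degrading enzyme RNase L, and enzyme activity was not measured here. The largest difference was that of Oas1b, which read 7.53, 6.71 and 6.82 in sham, 6.15, 5.88 and 6.42 at 3 days, and 7.02, 6.49 and 6.26 at 10 days. All 3 rats at 3 days lay below sham, and the 10-day rats overlapped with it. Oas1b differed by -0.88 ± 0.25 at 3 days (adjusted p = 0.105) and by -0.43 ± 0.25 at 10 days (adjusted p = 0.427). Its relative Oas1a differed by -0.33 ± 0.14 and -0.30 ± 0.14, and probesets of such close relatives may share signal, which was not tested. Oasl and Oasl2 differed by -0.57 ± 0.20 and -0.35 ± 0.18 at 3 days, and Oas2 by -0.10 ± 0.07, within its spread. Isg20, an exonuclease that degrades RNA, differed by -0.30 ± 0.10, and Adar, which edits double-stranded RNA, by -0.28 ± 0.08, both without overlap with sham. At 10 days the median of the group was -0.19 and none of the 7 was free of overlap.

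Mx1 and Mx2 encode dynamin-like GTPases that trap viral components. In both, the 3-day arrays lay below all sham arrays. Mx2 read 7.80, 7.87 and 8.15 in sham, 6.63, 7.66 and 6.90 at 3 days, and 7.12, 7.18 and 7.42 at 10 days. Rat 2 at 3 days lay close to the sham rats, and all 3 rats at 10 days lay below sham, including rat 1. Mx2 differed by -0.88 ± 0.22 at 3 days (adjusted p = 0.0752) and -0.70 ± 0.22 at 10 days (adjusted p = 0.169). Without rat 2 of the 3-day group its difference at 3 days was -1.18 (adjusted p = 0.00898). Mx1 differed by -0.67 ± 0.22 and -0.52 ± 0.22. Its arrays at 10 days were 8.61, 7.73 and 7.74, so that rat 1 lay among the sham values of 8.65, 8.38 and 8.59.

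The IFIT proteins, which bind foreign RNA and block its translation, did not share a direction. Ifit1 read 4.59, 4.62 and 4.97 in sham, 5.37, 5.82 and 4.86 at 3 days, and 4.86, 4.81 and 4.68 at 10 days. Rats 1 and 2 at 3 days lay above all other arrays, while rat 3 lay within the sham range. The difference of 0.62 ± 0.20 was the largest upward value of any member, with an adjusted p of 0.160 that became 0.0290 (difference 0.87) without rat 3. Its mean signal of 4.95 lay not far above the lower limit of 4.16 for testing. Ifit2 read 9.19, 9.30 and 9.43 in sham, 8.67, 9.42 and 9.40 at 3 days, and 10.10, 9.40 and 9.40 at 10 days. A single rat set each group mean apart, rat 1 low at 3 days and rat 1 high at 10 days, and the differences were -0.14 ± 0.23 and 0.33 ± 0.23. Ifit3 differed by -0.37 ± 0.16 at 3 days without overlap (adjusted p = 0.327) and by -0.23 ± 0.16 at 10 days.

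Guanylate-binding proteins coat the vacuoles in which microbes live. Gbp5 read 10.72, 10.60 and 10.65 in sham, 10.44, 10.56 and 10.52 at 3 days, and 10.71, 10.36 and 10.38 at 10 days. It differed by -0.15 ± 0.10 at 3 days, narrowly without overlap, and by -0.17 ± 0.10 at 10 days, and Gbp2 differed by -0.07 ± 0.17 and -0.02 ± 0.17. Parp14, an enzyme that adds ADP-ribose to proteins, read 9.34, 8.96 and 9.03 in sham, 8.55, 8.89 and 8.96 at 3 days, and 9.30, 8.88 and 9.10 at 10 days. Parp9, which works with the ubiquitin ligase Dtx3l, read 8.81, 8.62 and 8.47 in sham, 7.92, 8.62 and 8.68 at 3 days, and 8.93, 8.55 and 8.70 at 10 days. In both, rat 1 at 3 days was the lowest of all 9 arrays and the groups overlapped. Their differences were -0.31 ± 0.15 and -0.23 ± 0.19 at 3 days, and -0.01 ± 0.15 and 0.09 ± 0.19 at 10 days, and Dtx3l differed by -0.29 ± 0.20 and -0.06 ± 0.20. Of the nuclear body proteins, Pml, which organises these bodies, read 8.59, 8.24 and 8.28 in sham, 7.89, 8.09 and 8.27 at 3 days, and 8.48, 8.25 and 8.23 at 10 days. It differed by -0.29 ± 0.12 and -0.05 ± 0.12. Sp100, which resides in the same bodies, read between 9.69 and 9.92 on all arrays and differed by -0.06 ± 0.07 and -0.12 ± 0.07.

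Of the 9 remaining members, 7 read lower at 3 days and 3 of them without overlap, with a median of -0.27. Xaf1, which counters an inhibitor of cell death, read 7.15, 6.73 and 6.81 in sham, 6.02, 6.37 and 6.34 at 3 days, and 6.80, 6.30 and 6.20 at 10 days. The 3-day rats lay below sham and those at 10 days overlapped through rat 1. It differed by -0.66 ± 0.17 at 3 days (adjusted p = 0.0828) and -0.47 ± 0.17 at 10 days (adjusted p = 0.218). Ifi44, singled out after its values were seen because its groups did not overlap at either day, read 7.30, 7.02 and 7.04 in sham, 6.64, 6.55 and 6.84 at 3 days, and 6.84, 6.70 and 6.55 at 10 days. Its differences of -0.45 ± 0.11 (adjusted p = 0.0646) and -0.42 ± 0.11 (adjusted p = 0.102) were of like size, and its relative Ifi44l differed by -0.10 ± 0.11 at 3 days and -0.00013 ± 0.11 at 10 days. Ifi27, a small membrane protein of mitochondria, differed by -0.49 ± 0.16 at 3 days without overlap and by -0.07 ± 0.16 at 10 days. Lgals3bp, a secreted glycoprotein, differed by -0.36 ± 0.18 and -0.16 ± 0.18, and Samd9l, which restricts viral translation, by -0.27 ± 0.20 and -0.31 ± 0.20. A second, dimmer probeset for Samd9l differed by -0.05 and 0.05. Nmi and its partner Ifi35 differed by -0.07 ± 0.08 and 0.01 ± 0.13 at 3 days, and Tor3a, of the torsin family of ATPases, by 0.04 ± 0.15, each within its spread.

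The members were read array by array as the deviation from each gene's sham mean. At 3 days the median deviation over the 38 was -0.55 in rat 1, with 37 of 38 below the sham mean, -0.25 in rat 2 (32 below) and -0.15 in rat 3 (29 below). At 10 days it was 0.12 in rat 1, with 29 above the sham mean, -0.24 in rat 2 (36 below) and -0.21 in rat 3 (34 below). Rat 1 at 10 days was the highest of its group in 35 of 38 members, against 33.6% of all genes, and the highest of all 9 arrays in 15, against 10.2%. Rat 1 at 3 days was the lowest of all 9 in 18 members, against 10.7% of all genes, and rat 2 at 3 days in 10, against 13.1%. The members' spread within a group was wider than that of genes in general: the median SD was 0.139 in sham, 0.205 at 3 days and 0.218 at 10 days, against 0.0878, 0.0911 and 0.0932 over all genes.

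**Figure D4:**
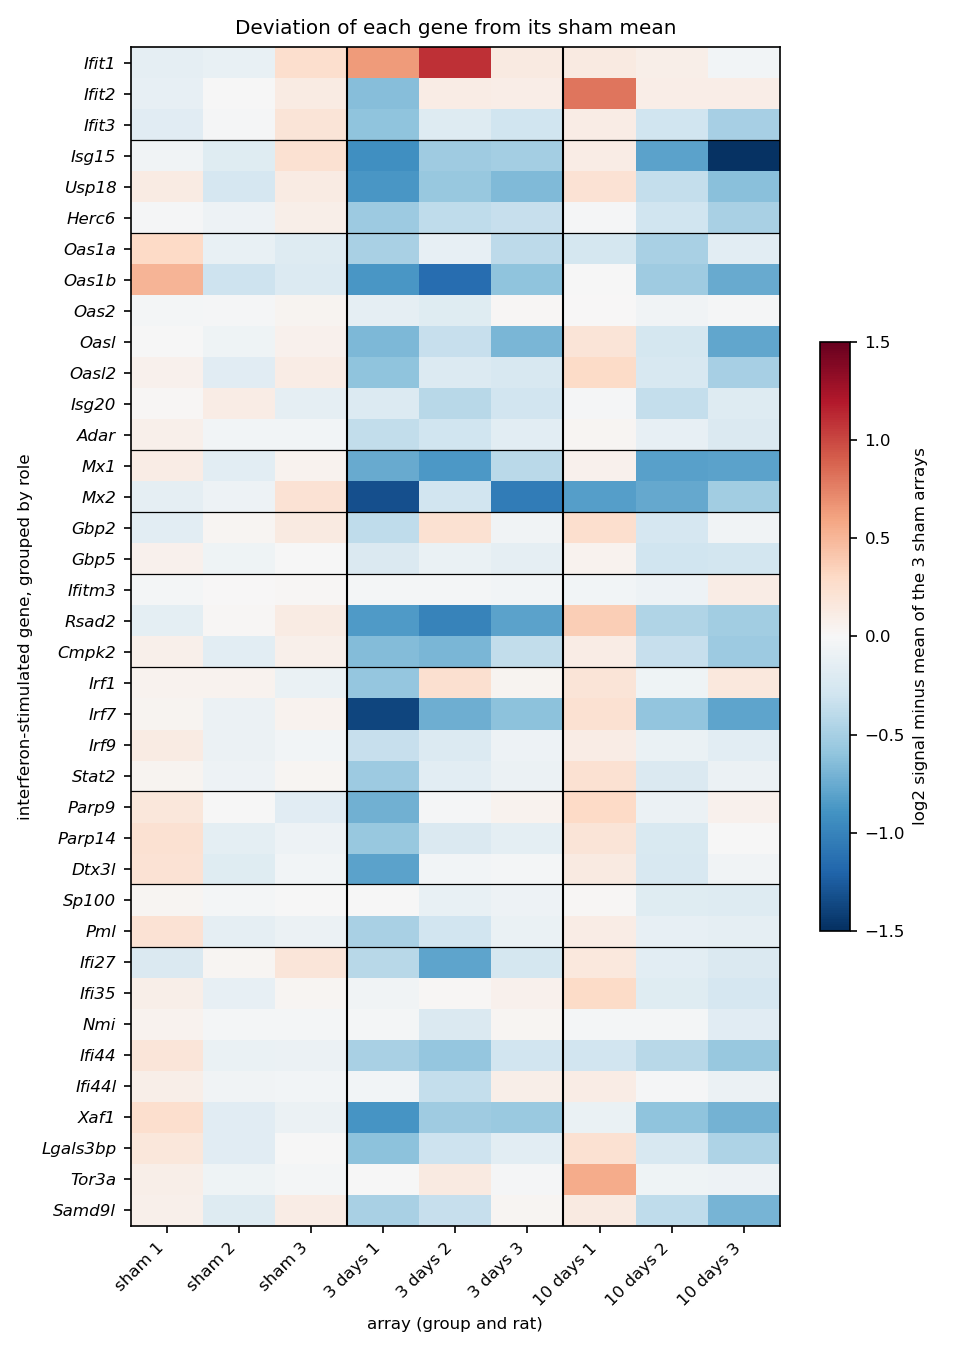
Log2 signal minus the gene's sham mean (colour scale, blue below and red above) for the 38 genes, in rows by role, on the 9 arrays in columns. The columns of 3 days and of rats 2 and 3 at 10 days are mostly blue, and rat 1 at 10 days is mostly at or above the sham mean, with a median of 0.12.

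The values at 10 days turned on that rat. It was the highest of its group in 35 of 38 members, against 33.6% of all genes. Leaving it out therefore lowers the 10-day means of most members by construction, more often than for genes in general. Leaving out each array in turn gave 9 fits, and the fit without rat 1 of the 10-day group had 24 of 38 members below sham without overlap at 10 days (63.2%), against 14.7% of all genes over the same arrays. The other 8 fits gave 2 to 4. The median difference at 10 days was then -0.24, and 20 members were lower at an unadjusted p under 0.05, against 6.41% of all genes in that fit, but no member had an adjusted p under 0.05 at 10 days in any fit. Because the 3 groups share an estimate of the spread, the same fit also moved the test at 3 days, whose differences it does not alter. There Rsad2 (adjusted p = 0.00563), Mx1 (0.0345), Usp18 (0.0346), Cmpk2 (0.0390), Herc6 (0.0416), Irf7 (0.0436) and Xaf1 (0.0458) passed 0.05, 7 of 38 in all, against 2.23% of all genes in that fit. Since that rat stood apart from its group in most members, leaving it out narrows the members' SE by construction, more often than for genes in general. For Rsad2 the SE at 3 days went from 0.20 to 0.086 with the difference unchanged. The 7 calls are therefore no support for a difference at 3 days. The fits that left out another array gave 0 or 1 called member at 3 days, against 1.36% to 2.33% of all genes. Without rat 1 of the 3-day group the median difference at 3 days was -0.21, and it lay between -0.39 and -0.21 over the 9 fits.

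Members with and without an ISRE match in the promoter window were set side by side as a description. The 19 with a match had a median difference of -0.33 at 3 days (from -0.91 to -0.03), all 19 below 0 and 10 without overlap. The 11 without a match had a median of -0.23 (from -0.67 to 0.04), with 9 below 0 and 5 without overlap. Of all genes 55% lay below 0 and 8.66% lay below sham without overlap. At 10 days the medians were -0.16 and -0.05. Among those without a match were Mx1, Oasl, Cmpk2 and Herc6, whose 3-day arrays all lay below sham. Among those with a match was Ifitm3, at -0.03. A second, dimmer probeset for Ifitm3 lay at 0.13, so that all 19 lay below 0 only with the brightest probesets. No match means only that these letters are not in this window.

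Other genes of the pathway were taken from lists of ligands, receptors, sensors, negative regulators and interferon gamma targets. Of the sensors and adaptors that lead to interferon production, 3 of 13 tested fell at 3 days (limma, adjusted p under 0.05), against 0.714% of all genes, and none rose, against 2.15%. The median difference of the 13 at 3 days was -0.035. At 10 days none was called, and 5 were lower and 1 higher at an unadjusted p under 0.05, against 8.21% and 7.99% of all genes. The 3 called at 3 days were Rig1 and Ifih1, cytoplasmic detectors of viral RNA, and Zbp1, a sensor of unusual nucleic acid structures. Zbp1 read 9.08, 8.88 and 9.02 in sham, 8.60, 8.25 and 8.59 at 3 days, and 8.53, 8.51 and 8.33 at 10 days, lower than sham in all 6 PPVL rats. It fell by 0.51 ± 0.11 at 3 days (adjusted p = 0.0371), and at 10 days it differed by -0.54 ± 0.11 (adjusted p = 0.0558). Ifih1 read 9.53, 9.25 and 9.42 in sham, 8.79, 9.02 and 8.86 at 3 days, and 9.49, 9.14 and 9.12 at 10 days, a fall of 0.51 ± 0.11 at 3 days (adjusted p = 0.0490). Rig1 read 6.89, 6.73 and 6.75 in sham, 6.34, 6.42 and 6.51 at 3 days, and 6.65, 6.52 and 6.43 at 10 days, and fell by 0.37 ± 0.08 at 3 days (adjusted p = 0.0445). For all 3 the 3-day arrays lay below all sham arrays, and for Ifih1 the 10-day arrays lay above all 3-day arrays. These calls were close to the threshold: leaving out each array in turn, Zbp1 passed in 2 of 9 fits, and Ifih1 and Rig1 in 1 each, with adjusted p up to 0.120, 0.154 and 0.137. All 3 are themselves interferon-induced in many cells.

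The other steps of the pathway held fewer calls, to be read against 2.86% of all genes called at 3 days and 0.735% at 10 days. Of 9 interferon ligands on the array, 5 were bright enough to test and none passed the test at either day. Ifnb1, the first type I interferon made in many cells, differed by -0.22 ± 0.09 at 3 days (adjusted p = 0.260) at a mean signal of 4.52, near the lower limit of 4.16. Ifng, the interferon of T and natural killer cells, read between 9.16 and 9.69 on all arrays and differed by -0.09 ± 0.14. Of 8 receptors and kinases none passed, and Ifnar1, a chain of the type I interferon receptor, differed by 0.08 ± 0.09 at 3 days and 0.11 ± 0.09 at 10 days. Ifnar2 was not found with a single symbol and was not analysed here. Of 10 negative regulators, Samhd1, which depletes nucleotides and limits viral replication, was the only gene called, and rose at 10 days (0.492% of all genes rose). It read 10.46, 10.42 and 10.66 in sham, 11.01, 10.81 and 10.75 at 3 days, and 11.07, 10.96 and 11.11 at 10 days. All 6 PPVL rats lay above sham, and the rise at 10 days was 0.53 ± 0.09 (adjusted p = 0.0449), which passed in 2 of the 9 fits without 1 array (adjusted p up to 0.153). At 3 days it differed by 0.34 ± 0.09 (adjusted p = 0.0860). Of 17 genes induced mainly by interferon gamma none passed at either day, and their median differences were -0.15 at 3 days and 0.02 at 10 days, against -0.29 and -0.13 over the 38 members.

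Marker genes were read on the same arrays as a check of the label. The general macrophage genes Cd68 (10.74 to 11.42) and Lyz2 (12.61 to 13.09) were bright on every array. Of 8 markers of Kupffer cells, the resident macrophages of the liver, Timd4 (4.29 to 4.66) and Vsig4 (3.70 to 4.50 on 8 arrays and 5.70 in rat 3 at 3 days) lay near the lower limit of 4.16 on most arrays. Fcna (mean 6.94) and Slc40a1, the iron exporter (mean 7.09), lay well above that limit. Both rose at 3 days, by 0.75 ± 0.08 (adjusted p = 0.00245) and 1.27 ± 0.17 (adjusted p = 0.00508). Of the Kupffer list 7 of 8 had a difference above 0 at 3 days, where 55% of all genes lay below 0, and the median was 0.55. In 4 of the 8 the 3-day arrays all lay above the sham arrays, against 10.1% of all genes.

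The level of a list is its genes' average deviation, on the log2 scale, from their own 9-array means. For the members it was 0.08 to 0.23 in sham, -0.33 to -0.07 at 3 days and -0.17 to 0.28 at 10 days. Counts of called markers that follow stand against 2.86% of all genes at 3 days and 0.735% at 10 days. With no filter or with a replicate block no gene was called at 10 days. Kupffer cell markers stood lowest in sham, at -0.31 to -0.23 in sham, 0.09 to 0.58 at 3 days and -0.017 to 0.0044 at 10 days, with 2 of 8 called higher at 3 days and 1 at 10 days. General macrophage markers lay at -0.22 to -0.18, -0.017 to 0.39 and -0.011 to 0.12, with 1 of 10 called higher at 3 days and none at 10 days. Conventional dendritic cell markers lay higher in sham, as the members did, at 0.09 to 0.14, against -0.20 to -0.08 at 3 days and -0.03 to 0.09 at 10 days. Of these 7 genes Flt3 (-1.12 ± 0.18) and Clec9a (-0.67 ± 0.11) fell at 3 days and none was called at 10 days. The median difference of the 7 at 3 days was -0.15. Of them 2 lay above 0, by up to 0.30, and 1 lay above sham without overlap, against 10.1% of all genes. Plasmacytoid dendritic cells are strong producers of type I interferon, and their 8 tested markers lay at -0.09 to 0.32, -0.20 to -0.0082 and -0.09 to -0.0048, with Irf8 lower at 3 days (-0.38) and none called at 10 days. At 3 days the median difference of these 8 was -0.31. Of them 4 lay below sham without overlap (50%, against 50% of the members and 8.66% of all genes), and 2 differed by more than 0, by up to 0.18. At 10 days 3 lay below sham without overlap and 1 above, against 11.1% and 9.88% of all genes. Of that list Siglech, Bst2 and Tlr9 were not found with a single symbol.

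The 10 T cell markers lay at 0.07 to 0.30 in sham, -0.22 to 0.09 at 3 days and -0.28 to -0.07 at 10 days. None was called at 3 days, where 6 were lower at an unadjusted p under 0.05 (6.39% of all genes). Their median difference at 3 days was -0.33, and 5 of the 10 lay below sham without overlap (50%, against 50% of the members and 8.66% of all genes). In the other direction, 2 of the 10 differed by more than 0 at 3 days, by up to 0.20. At 10 days Cd5 was called lower (-0.58 ± 0.10, adjusted p = 0.0449, limma). That call hung on the setting, since no gene was called at 10 days with no filter or with a replicate block. Without overlap 9 of the 10 lay below sham at 10 days, against 11.1% of all genes. The remaining 1 lay above sham without overlap, against 9.88% of all genes. The 9 natural killer cell markers lay at 0.13 to 0.22, -0.33 to 0.18 and -0.22 to -0.16, with none called at either day (limma). At an unadjusted p under 0.05, 1 of them was lower at 3 days and 5 at 10 days, against 6.39% and 8.21% of all genes. Without overlap 7 of the 9 natural killer cell markers lay below sham at 10 days, against 11.1% of all genes. The 8 B cell markers lay at -0.34 to -0.32, -0.07 to 0.40 and 0.09 to 0.35, with 2 called higher at 3 days and none at 10 days. Without overlap 7 of them lay above sham at 3 days and all 8 at 10 days, against 10.1% and 9.88% of all genes. The 9 neutrophil markers lay at -0.95 to 0.06, 0.04 to 0.73 and -0.44 to 0.12, with 2 called higher at 3 days and none at 10 days. Hepatocyte markers lay at -0.31 to -0.07, -0.13 to 0.24 and 0.0002 to 0.14, with 1 of 7 called higher at 3 days, and of 4 platelet and 4 sinusoidal endothelial cell markers none was called at either day. In rat 1 of the 10-day group, where the members stood at 0.28, T cell markers stood at -0.16, natural killer cell markers at -0.22 and plasmacytoid dendritic cell markers at -0.0048. The part of other cell types in the members' differences was not tested.

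**Figure D5:**
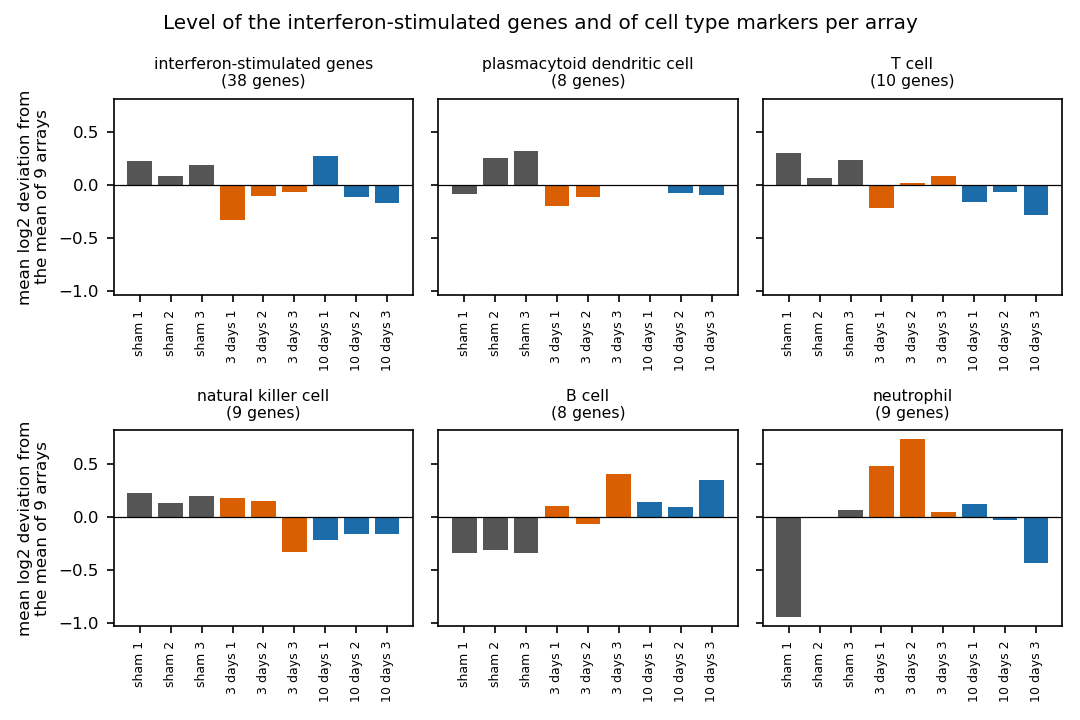
Mean log2 deviation from the 9-array mean (y axis) of the 38 interferon-stimulated genes and of 5 marker lists on each array (x axis; grey sham, orange 3 days, blue 10 days). The interferon-stimulated genes stand at 0.08 to 0.23 in sham, -0.33 to -0.07 at 3 days, and at 0.28, -0.11 and -0.17 in rats 1, 2 and 3 at 10 days, where the T cell and natural killer cell lists are below 0 in all 3 rats.

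Sequencing depth has no counterpart on arrays, and the small number of rats sets the precision. The arrays had median signals of 5.21 to 5.26 and correlated with each other at 0.987 to 0.993 across probesets. Over all genes the median SE of a difference was 0.0861. An exact permutation test on 3 and 3 rats reaches p = 0.1 at the lowest, so the tests rest on a spread pooled over genes.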

How the data were processed

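RNA of hepatic macrophages from 9 rats was measured on 1-colour arrays. The authors deposited log2 values, and the tools named are RMA (robust multi-array average) and Transcriptome Analysis Console, per the submitters' processing notes; versions and genome build are not given in the sources used here. No further normalization was applied, and no value was missing. RMA brings the arrays to a similar distribution and compresses dim signals, which understates differences of dim genes.

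Of 36685 probesets, 18511 carried 1 gene symbol in the platform's annotation, 575 several and 17599 none. The brightest probeset stood for a gene. A gene was tested if its mean reached the probesets' 30th percentile (4.16), which 14014 of 18166 did. The 9 arrays entered a single linear model in limma 3.58.1 (R 4.3.3; 6 residual and 3.59 prior degrees of freedom), with 2-sided moderated tests, Benjamini-Hochberg adjustment over all genes and a threshold of 0.05. The procedure was tested on simulated data. Groups overlap unless every array of a group lies beyond every array of the other.

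Per the labels, arrays are separate rats. Replicate numbers were taken as names only. The members and lists were chosen with earlier results of these data known. Per-array values are given for the members with the largest difference in each role at either day, for Ifi44 and Mx1 by choice after the values were seen, and for pathway genes that passed the test. Promoters printed are those of such members with an ISRE match before the start. Alternatives were leaving out the filter or raising it to the 50th percentile, averaging the probesets of a gene, quantile normalization, trend and robust moderation, array weights, a replicate block, only the 2 groups compared, and leaving out each array.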

Additional observations from a re-analysis of the deposited data

How the results depend on the processing

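At 3 days the count of called members, 0 of 38, became 2 with a filter at the 50th percentile (Rsad2 and Ifi44, adjusted p = 0.0394 and 0.0491) and 2 with array weights (0.0312 and 0.0475). It became 1, Rsad2, with quantile normalization (0.0474), trend and robust moderation (0.0460) or only the 2 groups compared (0.0220). It stayed at 0 with no filter, with the mean of a gene's probesets and with a replicate block. Leaving out each array in turn gave 0 to 7 at 3 days and 0 to 2 in the test over 3 groups. At 10 days and between the days it was 0 in all settings run. Members below sham without overlap numbered 19 to 26 at 3 days (8.66% to 15.5% of all genes) and 2 to 24 at 10 days (11.1% to 17.3%) when each array was left out, and the median difference ranged from -0.39 to -0.21, and from -0.24 to -0.04. Differences with a sign unlike the one reported made up 11 of 644 values at 3 days, 30 of 644 at 10 days and 35 of 644 between the days, none of them called.

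Over all genes the count of 401 at 3 days became 264 with a replicate block, 134 with only the 2 groups compared, 190 to 327 without 1 array, 324 with no filter, 406 with the mean of a gene's probesets, 424 with quantile normalization, 465 with trend and robust moderation, 490 with a filter at the 50th percentile and 530 with array weights. The count of 103 at 10 days became 0 with no filter or a replicate block, 173 with a filter at the 50th percentile or trend and robust moderation, 170 with quantile normalization, 197 with array weights, 61 with only the 2 groups and 0 to 140 without 1 array. The 10 between the days became 0 to 18. Arrays with the same replicate number correlated at -0.095 to 0.0837 in their deviations from the group means, and others at -0.127 to 0.167. No effect shared by arrays of the same number showed in these values, which cannot tell whether rats were handled in numbered sets. The replicate block changed no call of a member. The number of rats, 3 a group, limits what can be told from these differences.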

Other observations

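A further list of interferon-induced genes, written after the members' values were seen but before its own, held 25 tested genes. At 3 days 21 of 25 lay below 0, as did 55% of all genes, with a median difference of -0.17, and 9 (36%) lay below sham without overlap, against 8.66% of all genes. Slfn4, of the schlafen family, fell by 0.38 (adjusted p = 0.0444, limma) and was the only gene of the 25 called, where 2.86% of all genes were (0.714% lower). That call is close to the threshold, and whether it holds with an array left out was not tested. At 10 days none was called (limma), 3 were lower at an unadjusted p under 0.05 (12%, against 8.21% of all genes), and the median difference was -0.08. Without overlap 2 lay below sham and 2 above (8% each, against 11.1% and 9.88% of all genes). On single arrays the list stood at 0.12, 0.02 and 0.08 in sham, -0.18, -0.08 and -0.01 at 3 days, and 0.15, -0.07 and -0.03 at 10 days. Rat 1 of the 10-day group was again the highest of its group. These genes belong to the same response and were read on the same arrays, so the list is no independent check of the members.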
